A study of Mus musculus with 4 samples.

Results

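The 8 genes described here, Glycam1, Chst4, Madcam1, Fut7, Chst2, Ackr1, Selp and Sele, are known from the high endothelial venules of lymph nodes and were taken by name from the 38087 genes of the deposited read table. The symbol matched for 7 of them, and Ackr1 was found under its older symbol Darc by its Ensembl identifier. RNA was measured in 4 C57BL/6 mouse libraries at postnatal week 20. WT replicates 1 and 2 are wild-type samples labelled as cervical lymph node, and the libraries titled Becn1-M-KO (replicates 1 and 2, here KO) come from mice without Becn1, the gene of the autophagy protein Beclin-1, in myeloid cells. The promoter that drives the deletion is not given in the labels. The series title calls the KO tissue B cell lymphoma, so the deletion and the tumour cannot be told apart. Sex-linked genes went with the groups too: the female-expressed Xist counted 2088 and 5314 reads for WT but 3 and 34 for KO, while the Y-linked Eif2s3y counted 1 and 6 for WT but 767 and 1083 for KO. Whether the replicates are different mice is not stated in the labels, so each p-value rests on the spread among these libraries alone, and that spread may be technical. Totals were 15604247 to 20067004 reads per library.

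High endothelial venules are the plump-walled vessels through which lymphocytes leave the blood and enter a lymph node. Their endothelial cells carry sialomucins (GlyCAM-1, CD34, podocalyxin) whose sugar chains are fucosylated by the enzyme that Fut7 encodes and sulfated by those of Chst4 and Chst2, and the finished sugars catch passing lymphocytes from the blood. MAdCAM-1 is an adhesion molecule for the integrin alpha4 beta7, ACKR1 is a chemokine-binding receptor of venular endothelium, and P-selectin (Selp) and E-selectin (Sele) are endothelial selectins known for inflamed venules. Signalling through the lymphotoxin beta receptor is known to keep these vessels in their mature state in the adult node.

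The WT libraries differed greatly from each other, so KO was set against each of them. WT replicate 1 held 42 reads of the 8 genes in all, with Glycam1, Madcam1 and Sele at 0, against 11767 in WT replicate 2, 925 in KO replicate 1 and 1139 in KO replicate 2. It was also low in lymphocyte and endothelial reads. A list of 9 T cell genes summed to 13.7 counts-per-million of the library total (CPM of the total) there, against 732 in WT replicate 2, 561 and 566 in KO. A list of 8 B cell genes summed to 15.7, 1561, 2655 and 2549 in the same order. The 12 pan-endothelial genes, all detected in every library, summed to 99.99, 568, 566 and 430. With the TMM scaling used below these sums were 195, 482, 443 and 332. On that scale Tek and Flt1 were not lower in WT replicate 1 than in WT replicate 2 (9.77 and 24.2 against 9.02 and 18.1). The others of the 12 were lower. Gland epithelial genes were abundant in both WT libraries, at 9847 and 24824 CPM of the total over 9 genes, against 22.4 and 101 in KO. Most of each WT sum came from 1 secretory gene, Smgc in WT replicate 1 (7970) and Bpifa2 in WT replicate 2 (18856). Epcam (155 and 158), Krt18 (340 and 291) and Cdh1 (110 and 122) were similar in the WT libraries, so the sums do not measure epithelial content. These values do not show the lymphocyte content of a lymph node in WT replicate 1, so its tissue label is in doubt and comparisons with it are given as comparisons with the library so labelled. WT replicate 2 is the WT library in which these venule genes had enough reads to be compared, and it has no replicate. It too held many gland epithelial reads, at 24824 CPM of the total against 22.4 and 101 in KO. Their part in the differences between KO and WT replicate 2 was not tested.

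Promoter sequences are shown first for 3 genes that behaved differently: Glycam1, which was far lower in KO than in WT replicate 2, and Madcam1 and Sele, which were not called different from it. Each is the 250 bases before the RefSeq start site (GRCm38.p6, written 5′ to 3′ along the gene). Capitals mark the letters GGGA, then any 4 bases, then CC, a simple form of the site bound by NF-kB factors, searched on both strands. Overlapping matches are joined.
Glycam1 (chr15:103565082-103565331, minus strand): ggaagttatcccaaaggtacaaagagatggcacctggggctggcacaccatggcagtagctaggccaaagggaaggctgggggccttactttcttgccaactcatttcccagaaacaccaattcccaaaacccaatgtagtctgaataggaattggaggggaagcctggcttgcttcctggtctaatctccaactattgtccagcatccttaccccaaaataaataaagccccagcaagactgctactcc
Madcam1 (chr10:79664309-79664558, plus strand): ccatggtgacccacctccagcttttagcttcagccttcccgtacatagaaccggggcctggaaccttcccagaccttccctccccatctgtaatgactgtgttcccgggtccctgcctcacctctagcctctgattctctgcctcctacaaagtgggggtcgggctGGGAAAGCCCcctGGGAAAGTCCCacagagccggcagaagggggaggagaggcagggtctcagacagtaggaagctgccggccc
Sele (chr1:164047984-164048233, plus strand): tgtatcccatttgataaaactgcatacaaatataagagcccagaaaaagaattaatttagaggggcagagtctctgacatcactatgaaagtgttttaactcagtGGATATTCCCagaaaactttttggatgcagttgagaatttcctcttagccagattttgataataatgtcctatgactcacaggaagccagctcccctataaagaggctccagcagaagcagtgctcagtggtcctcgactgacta
The Madcam1 window holds 3 matches, of which 2 overlap on opposite strands. The Sele window holds 1 match, and Glycam1's holds none. Of the 5 other genes, Chst2 and Selp had 1 match each and Chst4, Ackr1 and both windows of Fut7 had 0. Over 32851 promoter windows of the same length, 17.6% held the letters. With 5 bases between GGGA and CC (held by 16.5% of windows), the Ackr1 window had 3 matches, Madcam1 4 and the 6 other genes 0, so which genes have a match depends on how the motif is written. Genes with a promoter window that were tested against WT replicate 2 were then counted by gene, with a match in any window of the gene enough. The first form was present in 26.2% of those called higher in KO, 25.8% of those called lower and 24.5% of those not called. These shares per gene are not comparable with the 17.6% per window. The motif was chosen after the values were known, and a match is a run of letters only.

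Glycam1, which encodes the secreted sialomucin GlyCAM-1 that displays these sugars, differed most of the 8 between KO and WT replicate 2. It lies on chromosome 15 from 103562762 to 103565078, on the minus strand. No read fell on it in WT replicate 1, against 10847 for WT replicate 2 and 139 and 98 for KO replicates 1 and 2. Scaled to library size with TMM factors (CPM from here on), these were 0, 515, 6.98 and 3.77 CPM. The KO libraries thus lay between the WT libraries, 95.8-fold below WT replicate 2 (95% counting interval 87.7 to 114) and at least 14.9-fold above WT replicate 1 when its 0 reads are taken as a floor of 3 (lower 95% counting limit 11.5). Against WT replicate 2 alone, edgeR gave a log2 fold change of −6.60 (SE 0.24, adjusted p = 1.4e-09), the 142nd lowest of 21844 genes tested. The fit with both WT libraries gave −5.59 (SE 3.18, adjusted p = 0.329). In these bulk samples fewer venule cells and less RNA per cell cannot be told apart. Glycam1 is also a milk protein gene of the lactating mammary gland. The 6 other milk protein genes of a fixed list summed to 1.73 CPM of the total in WT replicate 2, with Csn3 at 22 reads and Wap at 0; their part in the Glycam1 value was not tested.

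Madcam1, on chromosome 10 from 79664574 to 79668536, did not follow Glycam1. Its reads numbered 0 and 156 for WT against 140 and 212 for KO, or 0, 7.41, 7.03 and 8.16 CPM. WT replicate 2 and the KO libraries lay together, and WT replicate 1 was apart. Its log2 fold change against WT replicate 2 came to 0.042 (SE 0.20, adjusted p = 0.889), and the ratio of KO to that library was 1.03 with a counting interval of 0.855 to 1.26. Against WT replicate 1, KO was at least 21.0-fold higher at the floor of 3 reads (lower 95% counting limit 17.1). Because both genes were read in the same libraries, their ratio needs no scaling: there were 69.5 Glycam1 reads for each Madcam1 read in WT replicate 2, but 0.993 and 0.462 in KO.

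**Figure D1:**
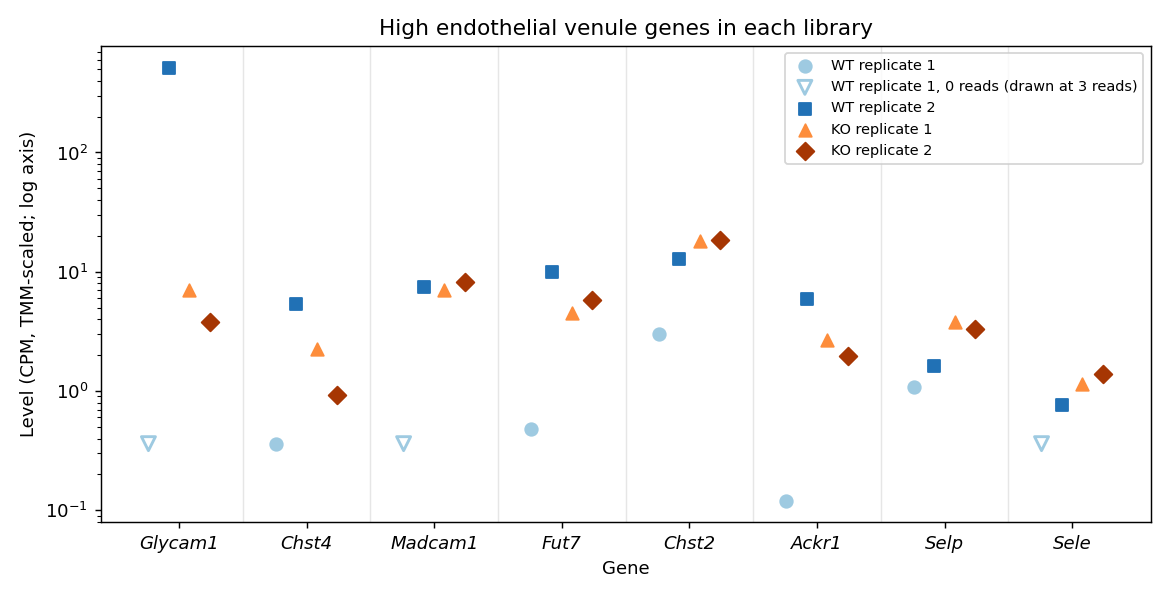
Level of each of the 8 genes in each library, in CPM with TMM scaling on a log axis; each point is 1 library, and open triangles are 0 reads drawn at the level of 3 reads. Glycam1 drops from 515 CPM in WT replicate 2 to 6.98 and 3.77 in KO, while Madcam1 stays between 7.03 and 8.16 in these 3 libraries.

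The sulfotransferase genes went in opposite directions against WT replicate 2. Chst4, on chromosome 8 from 110029075 to 110039334, encodes the sulfotransferase most restricted to these venules. Its reads numbered 3 and 112 for WT against 45 and 24 for KO (0.362, 5.32, 2.26 and 0.923 CPM). Both KO libraries were below WT replicate 2 and above WT replicate 1, and they differed from each other by 2.45-fold. The log2 fold change against WT replicate 2 was −1.79 (SE 0.38, adjusted p = 0.0023), a level 3.34-fold lower in KO (counting interval 2.60 to 4.85). Chst2, on chromosome 9 from 95400929 to 95407270, encodes the second of these enzymes, which is used in more tissues. Its reads numbered 25 and 268 for WT against 359 and 481 for KO, or 3.02, 12.7, 18.0 and 18.5 CPM. Both KO libraries were above both WT libraries, by 1.44-fold against WT replicate 2 (counting interval 1.25 to 1.66; log2 fold change 0.52, SE 0.14, adjusted p = 0.0093).

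Fut7, the fucosyltransferase gene, and Ackr1 were, like Chst4, lower in KO than in WT replicate 2. Fut7, on chromosome 2 from 25423267 to 25426374, counted 4 and 210 reads for WT against 90 and 151 for KO (0.483, 9.97, 4.52 and 5.81 CPM). Its KO levels were 1.93-fold below WT replicate 2 (counting interval 1.57 to 2.29; log2 fold change −0.94, SE 0.21, adjusted p = 0.0034). Leukocytes also use this enzyme to make selectin ligands, so not all Fut7 reads need be endothelial. Neutrophil list reads were 0.372 and 13.2 CPM of the total in WT and 17.2 and 22.9 in KO, with 6 of 9 neutrophil genes at 0 in WT replicate 1, and T cell list reads are given above; their part in the Fut7 values was not tested. Ackr1, on chromosome 1 from 173331886 to 173333503, counted 1 and 124 reads for WT against 53 and 51 for KO (0.121, 5.89, 2.66 and 1.96 CPM). The KO libraries lay close together, 2.55-fold below WT replicate 2 (counting interval 1.99 to 3.41; log2 fold change −1.36, SE 0.27, adjusted p = 0.0013). Red cell precursors can also express Ackr1. The 6 erythroid genes summed to 567 and 428 CPM of the total in WT and 91.8 and 61.6 in KO, so they were also lower in KO; their part in the Ackr1 value was not tested.

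Of the selectin genes, Selp was called higher in KO than in WT replicate 2 and Sele was not called. Selp, on chromosome 1 from 164115264 to 164150026, counted 9 and 34 reads for WT against 76 and 86 for KO, or 1.09, 1.61, 3.82 and 3.31 CPM. Both KO libraries were above both WT libraries, which differed from each other by 1.49-fold. KO was 2.21-fold above WT replicate 2 (counting interval 1.503 to 3.26; log2 fold change 1.13, SE 0.31, adjusted p = 0.0111). The 4-library value was 1.36 (SE 0.38, adjusted p = 0.13). The non-coding genes Gm16587 and Gm16548 overlap Selp on the other strand, with 2 and 3 reads for WT against 13 and 9 for KO on Gm16587, and 3 and 9, then 25 and 21 on Gm16548. Their reads were thus also higher in KO, and without a stated strand setting they cannot be told apart from Selp reads there. Platelets also carry P-selectin. Reads of 8 platelet and megakaryocyte genes were 6.69 and 60.9 CPM of the total in WT and 49.6 and 43.2 in KO, a sum carried mostly by Itgb3 and Itga2b. Of the 6 platelet genes tested against WT replicate 2, Pf4, Itga2b and Gp5 were called lower and Treml1 higher (log2 fold change 3.22, edgeR adjusted p = 0.0081). Gp9 was at 0 in WT replicate 2. Their part in the Selp value was not tested. Sele, on chromosome 1 from 164048234 to 164057677, counted 0 and 16 reads for WT against 23 and 36 for KO (0, 0.760, 1.16 and 1.38 CPM). Its KO levels were above both WT libraries, but the log2 fold change against WT replicate 2 was 0.75 (SE 0.47, adjusted p = 0.223), and the ratio of 1.67 had a counting interval of 0.961 to 3.15.

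**Figure D2:**
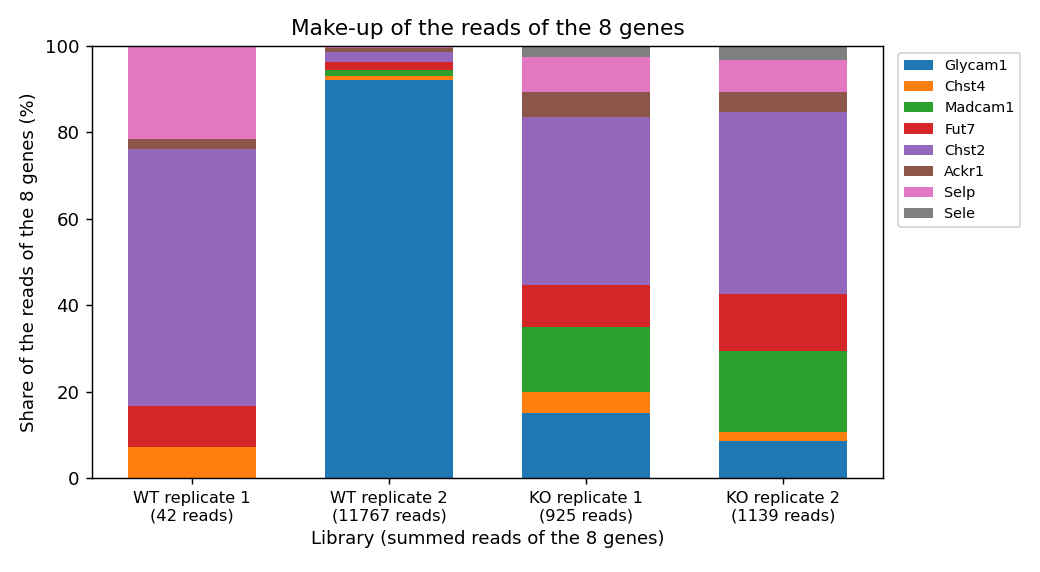
Share of the summed reads of the 8 genes that each gene took, in percent, with 1 bar per library; reads are not corrected for gene length, so shares are read across libraries and not between genes. Glycam1 takes 92.2% in WT replicate 2 and 15.03% and 8.60% in KO, while WT replicate 1 rests on 42 reads.

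Counted over the 8 genes, KO was lower than WT replicate 2 for 4 (Glycam1, Chst4, Fut7 and Ackr1) and higher for 2 (Chst2 and Selp) at an adjusted p under 0.05, while Madcam1 and Sele were not called. In the same fit 22.8% of all genes were called lower and 20.9% higher (43.8% in either direction), so calls were common. With 1 WT library these calls take the spread from the KO pair and say nothing of the spread between WT samples. Against WT replicate 1, 7 of the 8 were called higher in KO and Chst4 was not (log2 fold change 2.05, adjusted p = 0.0706), where 32.3% of all genes were called higher, 32.5% lower and 64.7% either. The median log2 fold change of the 8 genes was −0.45 against WT replicate 2 and 3.78 against WT replicate 1, beside medians over all genes tested of 0.0045 and 0.056. In the 4-library fit, 0 of the 8 were called by edgeR, beside 1.04% of all genes higher and 2.18% lower (3.22% either), and DESeq2 and limma-voom also called 0. At an unadjusted p under 0.05 there was 1 (Selp) with each of the 3 tools. With library totals or a replicate block there were 0, with unadjusted edgeR p-values for Selp of 0.0552 and 0.0627. In simulated counts the 4-library edgeR fit recovered 0 of 67 changes of 4-fold and 27 of 66 of 16-fold, so 0 calls do not show an absence of change. The simulated fit against WT replicate 2 recovered 54 of 67 changes of 2-fold, 67 of 67 of 4-fold and 66 of 66 of 16-fold. It also gave 30 false calls, so some calls against WT replicate 2 may be false. Chst2, Selp and Sele were higher in both KO libraries than in both WT libraries, which held for 34.5% of all genes tested, and 0 of the 8 were lower in both, against 33.2%.

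**Figure D3:**
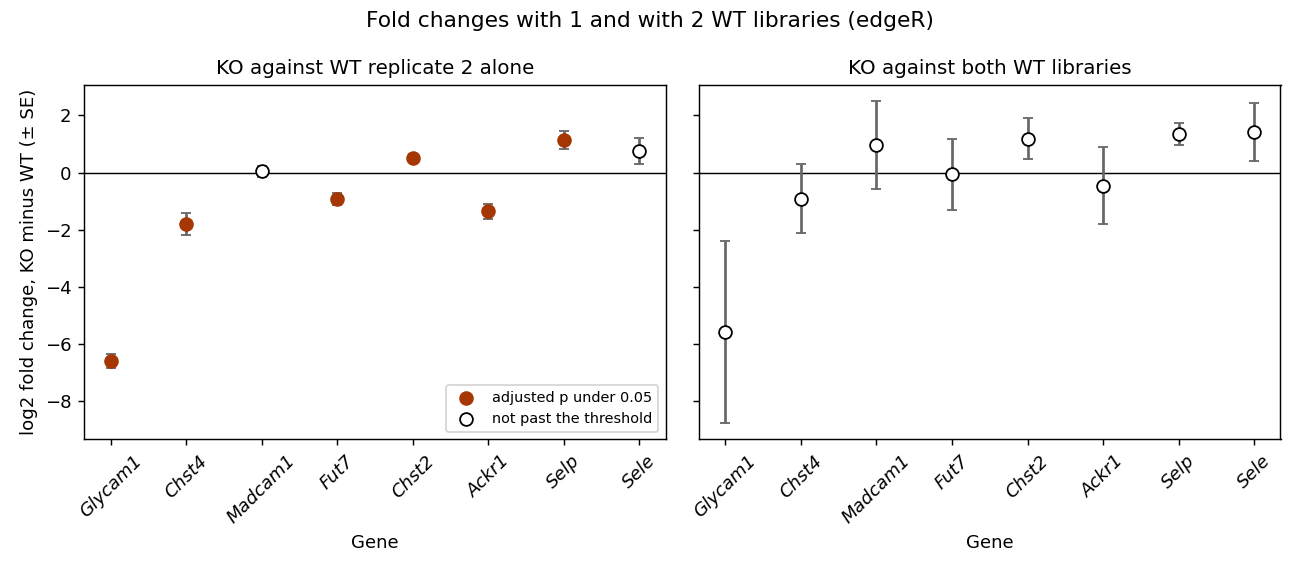
Log2 fold change of each gene, KO minus WT, with the standard error (edgeR), against WT replicate 2 alone (left) and both WT libraries (right); filled points passed an adjusted p of 0.05. Against WT replicate 2 the values run from −6.60 for Glycam1 to 1.13 for Selp; with both WT libraries the errors widen, to 3.18 for Glycam1, and no point is filled.

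The authors' deposited tables also hold these genes in part. In their log2 table, which is centred on the median of the 4 libraries, the KO mean was 6.65 below WT replicate 2 for Glycam1, 1.93 below for Chst4, 1.43 below for Ackr1 and 0.96 below for Fut7. In that deposited table it was 0.047 above WT replicate 2 for Madcam1, 0.51 for Chst2, 1.27 for Sele and 1.77 for Selp. None of the 8 genes is among the 5511 genes in the authors' deposited table of comparisons with unadjusted p-values, or among the 71 lower and 86 higher genes of their shorter lists.

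To set the venule genes against vessels in general, each was expressed per 1000 reads of the 12 pan-endothelial genes (Pecam1, Cdh5, Kdr, Tek, Tie1, Flt1, Eng, Esam, Cldn5, Egfl7, Erg and Robo4). Glycam1 stood at 1069 per 1000 in WT replicate 2 and 15.8 and 11.4 in KO, a log2 ratio of −6.30, beside −6.58 from CPM. Chst4 was at 11.04 in WT replicate 2 and 5.10 and 2.78 in KO, and Ackr1 at 12.2 and then 6.01 and 5.91. Fut7 was at 20.7, 10.2 and 17.5, with KO replicate 2 close to WT replicate 2. Madcam1 was at 15.4 in WT replicate 2 and 15.9 and 24.6 in KO, Chst2 at 26.4, 40.7 and 55.8, Selp at 3.35, 8.61 and 9.97, and Sele at 1.58, 2.61 and 4.17. In WT replicate 1, whose endothelial reads numbered 1614, Chst2 stood at 15.5, Selp at 5.58, Fut7 at 2.48, Chst4 at 1.86 and Ackr1 at 0.620. Selp per endothelial read was thus higher in WT replicate 1 than in WT replicate 2, unlike the 7 other genes; for Glycam1, Madcam1 and Sele a count of 0 there allows up to 1.86 per 1000, above the Sele value of WT replicate 2.

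**Figure D4:**
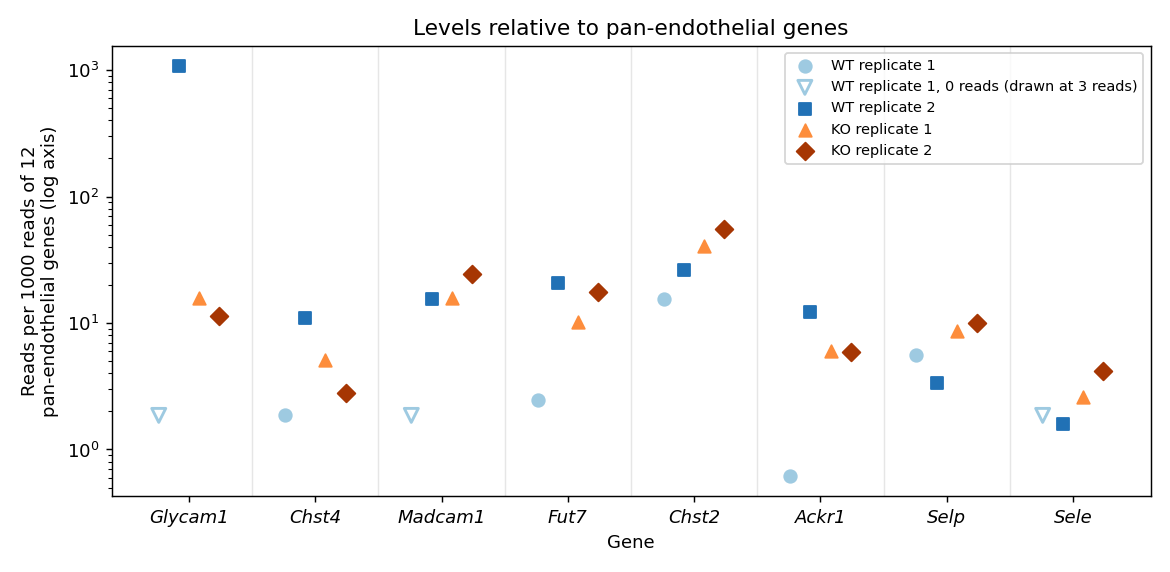
Reads of each gene per 1000 reads of 12 pan-endothelial genes, on a log axis; each point is 1 library, and open triangles are 0 reads drawn at the level of 3 reads. Glycam1 falls from 1069 to 15.8 and 11.4 between WT replicate 2 and KO, and Selp is higher in KO (8.61 and 9.97) than in either WT library.

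The endothelial lists differed in their median log2 fold change against WT replicate 2, at −1.40 for 3 venous genes and −0.081 for 6 lymphatic genes. Calls were common in that fit, at 22.8% of all genes lower and 20.9% higher, and the list counts here are read beside these shares. Against WT replicate 2, 5 of 12 pan-endothelial genes were called lower and 1 higher in KO (Eng, log2 fold change 0.53), with a median of −0.39. All 3 venous genes were called lower: Vwf by 1.90, Ephb4 by 1.40 and Nr2f2 by 0.88 on the log2 scale (edgeR adjusted p of 6.2e-07, 1.3e-05 and 0.00050). Nr2f2 encodes a transcription factor of venous identity, and Vwf the clotting factor of von Willebrand. With both WT libraries 0 of the 3 passed (edgeR adjusted p = 0.126, 0.0739 and 0.303). Ephb4 was highest in WT replicate 1, at 49.1 CPM against 31.4 in WT replicate 2. Vwf and Nr2f2 were not, at 49.6 and 11.5 CPM against 93.6 and 17.8. Of 6 lymphatic genes, Pdpn and Reln were called higher and Prox1 lower.

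Other genes that build the sugar ligands went both ways, beside 22.8% of all genes called lower and 20.9% higher against WT replicate 2. Of 12 in the list, 6 were called lower and 4 higher against WT replicate 2 (median −0.48), and with both WT libraries 1 was called lower and 0 higher (5 and 0 at an unadjusted p under 0.05). The gene called in both fits was St3gal4, which encodes a sialyltransferase of the sialyl Lewis X structure: 760 and 367 CPM in WT and 28.7 and 30.1 in KO (log2 fold change −4.26, SE 0.52, adjusted p = 0.048). This 4-library call was lost with library totals, with a replicate block and without either KO library. Gland epithelial reads moved with it, as given above, and their part in it was not tested. C1galt1c1, the chaperone of the core O-glycan enzyme, was lower against WT replicate 2 by 1.25 (SE 0.14). Papss1, which makes the sulfate donor, was lower by 1.05 (SE 0.11). Both were highest in WT replicate 1, at 29.0 and 184 CPM against 20.4 and 64.0 in WT replicate 2. The other donor enzyme gene, Papss2, was higher, at 14.3 CPM in WT replicate 2 and 33.6 and 32.7 in KO (1.21, SE 0.13). Chst1, a further sulfotransferase gene, was also higher, at 13.5 and then 28.6 and 28.7 CPM (1.08, SE 0.13). Fut4 (0.49) and Gcnt1 (0.78) were the other 2 called higher. Slc35c1 (−1.07), Slc35b2 (−0.93) and St3gal6 (−0.67), which encode sugar and sulfate donor transporters and a sialyltransferase, were the others called lower. Slc35b2 was highest in WT replicate 1, at 204 CPM against 76.4 in WT replicate 2. Slc35c1 and St3gal6 were not, at 55.5 and 8.57 CPM against 79.7 and 35.2. The part of gland epithelial reads in the values of this list was not tested.

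Adhesion genes also went both ways, beside the same 22.8% of all genes lower and 20.9% higher against WT replicate 2. Among 9 scaffold and adhesion genes, 5 were called lower and 2 higher against WT replicate 2 (median −0.61), with 0 either way by edgeR with both WT libraries, though DESeq2 called 2 higher and 2 lower and limma-voom 0 (0 higher and 3 lower at an unadjusted edgeR p under 0.05). Vcam1, the ligand of integrin alpha4 beta1, reached 310 and 291 CPM in KO from 5.43 and 73.7 in WT (2.03 against WT replicate 2, SE 0.16, adjusted p = 7.0e-07). Icam1, the ligand of LFA-1, reached 247 and 221 CPM from 12.4 and 70.2 (1.74, SE 0.15). Both genes are also expressed outside vessels, in stroma and immune cells. The sialomucin scaffolds Podxl and Emcn were called lower (−0.73 and −0.61), while Cd34 was at 22.4 CPM in WT replicate 2 and 19.3 and 13.5 in KO (−0.45, SE 0.18, adjusted p = 0.0608). Jam2, Jam3 and Cd99l2, junction and transmigration genes, were called lower by 1.26, 1.03 and 1.27 on the log2 scale. Jam2, Cd99l2 and Podxl were highest in WT replicate 1, at 34.7, 70.6 and 32.0 CPM against 21.7, 31.7 and 23.8 in WT replicate 2. Jam3 and Emcn were not, at 7.48 and 5.67 CPM against 28.8 and 6.88. The part of gland epithelial reads in these values was not tested.

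**Figure D5:**
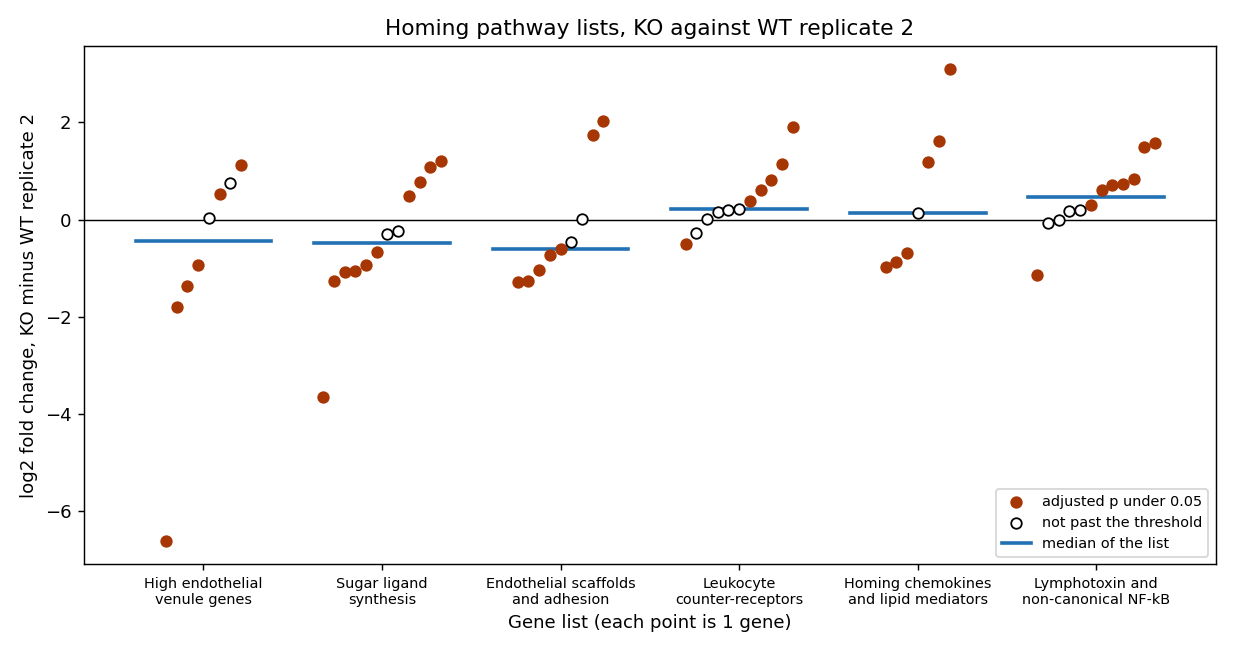
Log2 fold change of KO minus WT replicate 2 for the 8 venule genes and for 5 lists of other homing pathway genes; each point is 1 gene, filled where the adjusted p was under 0.05, and the blue line is the list's median. The medians are −0.45 for the 8 genes, −0.48 and −0.61 for ligand synthesis and adhesion, and 0.23, 0.14 and 0.46 for counter-receptors, chemokines and lymphotoxin signalling.

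Transcripts of the lymphocyte side were read in quantity in WT replicate 2 and KO. The counts against WT replicate 2 stand beside 20.9% of all genes called higher and 22.8% lower. Of 11 counter-receptor genes, 5 were called higher and 1 lower against WT replicate 2 (median 0.23). In the 4-library fit edgeR and limma-voom called 0 and DESeq2 1, higher, with 0 at an unadjusted edgeR p under 0.05. Itgb7, part of the MAdCAM-1 receptor, was at 148 CPM in WT replicate 2 and 179 and 166 in KO (0.23, adjusted p = 0.180), and its partner Itga4 was called higher (0.82, SE 0.12). Ccr7, the receptor that guides T cells into the node, was the 1 called lower, at 134 and then 99.1 and 90.9 CPM (−0.49, SE 0.11, adjusted p = 0.0032). T cell genes were lower beside it, with 6 of 9 called lower, 0 higher and a median of −0.47; their part in the Ccr7 value was not tested. Itgb2 (1.90), Itgal (1.15), Cxcr5 (0.62) and Cxcr4 (0.39) were the others called higher.

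Among 7 homing chemokine and lipid mediator genes, 3 were called higher and 3 lower against WT replicate 2 (median 0.14). The shares over all genes in that fit were 20.9% higher and 22.8% lower. Over 4 libraries edgeR and limma-voom called 0 and DESeq2 1 higher. At an unadjusted edgeR p under 0.05, 0 were higher and 2 lower. Cxcl13, the B cell follicle chemokine, reached 586 and 471 CPM in KO from 1.09 and 62.2 in WT (3.09 against WT replicate 2, SE 0.22). Ccl19 (1.61) and Cxcl12 (1.19) were also higher. Ccl21a, which encodes the CCR7 ligand made by these venules and by reticular stroma, was lower, at 130 CPM in WT replicate 2 and 61.5 and 81.1 in KO (−0.87, SE 0.14, adjusted p = 0.00032). Enpp2, the autotaxin gene expressed by high endothelial cells, was at 128 CPM in WT replicate 2 and 149 and 134 in KO (0.14, SE 0.12, adjusted p = 0.384). Sphk1 and Spns2, which make and export sphingosine 1-phosphate, were lower (−0.98 and −0.68). Both were highest in WT replicate 1, at 8.57 and 146 CPM against 4.70 and 73.7 in WT replicate 2.

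Of 12 lymphotoxin and non-canonical NF-kB genes, 7 were called higher and 1 lower against WT replicate 2 (median 0.46), where 20.9% of all genes were called higher and 22.8% lower. B cell list reads were also higher in KO, at 2655 and 2549 CPM of the total beside 1561 in WT replicate 2, with 5 of 8 genes called higher and 1 lower; their part in these values was not tested. With both WT libraries edgeR and limma-voom called 0 and DESeq2 1 in each direction, with 1 higher and 1 lower at an unadjusted edgeR p under 0.05. The ligand genes Lta and Ltb were at 16.7 and 238 CPM in WT replicate 2, at 19.2 and 231 in KO replicate 1 and at 18.8 and 222 in KO replicate 2, with values of 0.19 (SE 0.13, adjusted p = 0.277) and −0.069 (SE 0.14, adjusted p = 0.735). The receptor gene Ltbr was at 32.9 CPM in WT replicate 2 and 34.2 and 31.5 in KO (−0.00064, SE 0.12), but at 113 in WT replicate 1. Relb (0.73), Nfkb2 (0.61), Map3k14 (0.70), Tnf (1.58), Tnfsf11 (1.499), Tnfrsf1a (0.83) and Traf3 (0.30) were called higher, and Tnfrsf11a, which encodes the receptor RANK, was called lower (−1.13). Tnfrsf1a was at 90.2 CPM in WT replicate 1, above the 85.2 and 75.3 of KO. The others called higher were above both WT libraries in KO.

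The genes whose profile over the 4 libraries lay nearest to Glycam1 were Cd209b, Marco and Cd209d, which encode a C-type lectin, a scavenger receptor and a C-type lectin of macrophages. Likeness was the root mean square difference of centred log2 CPM among 13454 genes, at 0.842, 1.67 and 1.74. Cd209b counted 1 and 4733 reads for WT against 174 and 77 for KO, and Marco had 4 and 3541 and then 622 and 424. Nearest to Madcam1 was Tspan32 (0.0796), which counted 7 and 1444 reads for WT against 1459 and 1957 for KO. For Chst4 the nearest was Wnt11 (0.203), for Fut7 Gstp3 (0.0989), for Ackr1 Nsg2 (0.185), for Chst2 Gmip (0.0249), for Selp Prnd (0.0369) and for Sele Kcna3 (0.0472). Over 4 libraries such likeness is a description only.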

How the data were processed

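Per the labels' protocols, total RNA had its ribosomal RNA removed before Ion Torrent sequencing. The table the authors deposited holds raw counts, 1 whole number per gene and library. The listed gene length equals the genomic span for 100% of genes, so intronic reads may be counted. The submitters' processing notes list mm10 and DESeq2 1.62 with no role stated. Which aligner and counter were used is not given in the sources used here, per the labels and headers. The authors deposited log2 values whose normalization is not stated, and comparison tables with log2 fold changes and unadjusted p-values, per the file headers. Coverage columns, 8 in number, went unused.

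The main test was edgeR 4.0.16 (R 4.3.3; quasi-likelihood, TMM, filterByExpr at min.count 10 and min.total.count 15, no block), over all genes passing the filter: 20695 with 4 libraries, 21844 without WT replicate 1 and 21327 without WT replicate 2. All 8 genes passed. Adjusted p-values are Benjamini-Hochberg values with a threshold of 0.05, from this test unless another is named. SE was taken as the log2 fold change over the square root of F. TMM factors were 0.513 and 1.18 in WT and 1.28 and 1.30 in KO. Counting intervals (exact binomial on pooled KO reads, 95%) and floors (3 reads, 0.149 to 0.192 CPM of the total) cover counting error only. The genes and lists were chosen with earlier results of these data known. The 5 pathway lists held 51 genes, all matched; 1 of them is counted with its list but not reported here by itself. In each list, genes called in either fit and up to 4 with the smallest p were eligible to be named; further genes (Cd34, Itgb7, Enpp2, Lta, Ltb and Ltbr among them) were named for their role after their values were seen. Nearest genes had an average log2 CPM of at least 1 (prior count 2). The procedure was tested on simulated counts. Alternatives were DESeq2 1.42.0, limma-voom 3.58.1, other scalings and filters, a replicate block and each library left out. Same-numbered libraries are paired by number only.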

Additional observations from a re-analysis of the deposited data

How the results depend on the processing

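With all 4 libraries, the 8 genes gave 0 calls under every alternative run (DESeq2, limma-voom, DESeq2 size factors, library totals, no and a stricter count filter, 23 abundant genes left out, replicate block, crossed pairing); leaving out 1 library gave 0 to 7 higher and 0 to 4 lower. Leave-one-out log2 fold changes ranged from −6.60 to 9.58 (Glycam1), −1.79 to 2.05 (Chst4), 0.042 to 10.1 (Madcam1), −0.94 to 3.40 (Fut7), 0.52 to 2.58 (Chst2), −1.36 to 4.15 (Ackr1), 1.13 to 1.69 (Selp) and 0.75 to 7.54 (Sele). The higher ends are all from leaving out WT replicate 2. Fitted values of genes at 0 reads in WT replicate 1, the WT library left in that fit, depend on the prior count. Without KO replicate 1 Fut7 was 0.13. The Fut7 value of −0.068 turned to 0.14 with library totals, 0.72 with limma-voom and 0.83 with the replicate block, and the Ackr1 value of −0.46 to 0.60 with limma-voom and 0.44 with the block. The cause was not tested.

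Counts over all genes (216 higher, 451 lower) were 0 and 0 with library totals or the replicate block (1472 and 1505, and 1866 and 2734, at an unadjusted p under 0.05), 542 and 1188 without a filter, 1325 and 2430 with DESeq2, and 0 to 6887 and 0 to 6922 with 1 library left out. With 0 calls without KO replicate 1 or 2, 732 and 743 were higher and 1318 and 1342 lower at an unadjusted p under 0.05. Same-numbered deviations correlated at −0.108 over 20695 genes; the crossed pairing gave 202 and 643. The block changed no call of the 8 genes.

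In the lists, ligand synthesis had 1 lower gene, 0 with library totals or the block, 2 without a filter, 4 with DESeq2 and 0 to 7 with 1 library left out (0 to 4 higher). DESeq2 called 2 higher and 2 lower among adhesion genes, 1 higher counter-receptor, 1 higher chemokine, and 1 higher and 1 lower lymphotoxin gene, each 0 with edgeR. Leaving out 1 library gave 0 to 4 higher and 0 to 5 lower (adhesion), 0 to 11 and 0 to 1 (counter-receptors), 0 to 5 and 0 to 3 (chemokines), and 0 to 9 and 0 to 2 (lymphotoxin). With library totals, which moved the median of all genes to 0.60, the ligand synthesis median of −0.24 turned to 0.26 and the adhesion median of −0.38 to 0.073; leaving out 1 library, the latter ran from −0.61 (without WT replicate 1) to 0.075 (without WT replicate 2).

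Against WT replicate 2, the directions of the 8 ratios were the same with library totals and DESeq2 size factors. Madcam1 turned from 0.036 to −0.075 without KO replicate 2. Relative to Cdh5 alone the 8 directions were also the same, with Glycam1 at −6.62. They were the same too without Pecam1, the most abundant pan-endothelial gene. Across both alternatives, 2 ratios moved by more than the standard deviation of the KO pair. Counting error is widest for Sele outside WT replicate 1, at 16 to 36 reads.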
